A study of Mus musculus with 4 samples.

Results

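Cells that carried the genes of leukocytes were examined among cells that had been sorted from tumors as podoplanin (PDPN)+ fibroblasts without CD45, the surface protein of leukocytes. An immune cell was taken as a cell with 500 to 6000 genes and at most 10% of mitochondrial transcripts in which at least 4 of the 6 leukocyte genes *Ptprc*, *Cd52*, *Coro1a*, *Tyrobp*, *Laptm5* and *Cd53* were detected and the melanoma gene *Pax3* was not. This gave 372 of 22691 kept cells. Because fibroblast RNA is present in the libraries, the 372 cells were divided by the summed share of *Col1a1*, *Col1a2* and *Col3a1* among their transcripts into 256 collagen-low cells, under 1%, and 116 collagen-high cells, at 1% or over. The cells and the division were chosen on the same transcripts that are described here, so all levels and differences below are descriptions and none was tested.

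The tumors were B16-F1-OVA melanomas, which grow from a mouse melanoma line that carries ovalbumin, harvested on day 14 after injection into the peritoneal cavity of mice of the C57Bl/6 host strain. All mice were Cxcl13-cre-tdTomato x R26R-eGFPflox, in which the *Cxcl13* promoter drives both tdTomato and Cre, so that tdTomato marks present and eGFP marks present or past activity of that promoter. The study asked how fibroblasts that make CXCL13, the chemokine that draws B cells, take part in the lymphoid aggregates of such tumors. The submitters' labels call all sorted cells fibroblasts. The study itself found residual immune and melanoma clusters among them, by *Ptprc* and *Pax3*, and left these out of its fibroblast analysis. PDPN+ cells were enriched on beads, and living CD45neg CD31neg PDPNhi cells were sorted into tdTomatoneg eGFP+, tdTomato+ eGFPneg, tdTomato+ eGFP+ and tdTomatoneg eGFPneg populations.

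Each population was made into 1 library with 10x Genomics 3′ reagents, in which a unique molecular identifier (UMI) lets each captured transcript be counted once. The ages of the mice and the number of tumors in each library are not given in the sources used here, and mice of both sexes were used in the study. With 1 library per population there is no replicate, no difference between populations was tested across samples, and the intervals given are 95% intervals for counting error alone. The libraries held between 10071954 and 90259852 UMIs over 984 to 11745 cell barcodes. Of these barcodes, 57 occurred in more than 1 library, and 3 of the 372 immune cells carried such a barcode. The cells used for comparison, called reference collagen cells, were the 13362 kept cells of the same libraries with at least 1% collagen transcripts, at most 1 of the 6 leukocyte genes and no *Pax3*.

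Macrophages are phagocytes that take up dying cells and antibody-coated particles, make the C1q proteins of the complement cascade, and show peptides to T cells on MHC class II. They arise from circulating monocytes or, in the peritoneal cavity, also from a resident population. T cells and B cells carry clonally rearranged antigen receptors, and plasma cells are the antibody-secreting descendants of B cells. Macrophages and lymphocytes respond to chemokines such as CCL2, CXCL12 and CXCL13 through receptors on their surface.

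The share of immune cells among kept cells differed between the libraries by more than the counting error. It was 1.27% (interval 0.998 to 1.58, 76 of 6006 cells) in the tdTomatoneg eGFP+ library and 3.39% (2.91 to 3.94, 168 of 4952) in the tdTomato+ eGFPneg library. In the tdTomato+ eGFP+ library it was 2.50% (1.59 to 3.73, 23 of 920), and in the tdTomatoneg eGFPneg library it was 0.971% (0.795 to 1.17, 105 of 10813). The tdTomato+ libraries thus lay above the tdTomatoneg libraries, whose intervals overlapped with each other but not with those of the tdTomato+ libraries. The gap was very narrow between the tdTomato+ eGFP+ library, with an interval from 1.59%, and the tdTomatoneg eGFP+ library, with an interval up to 1.58%. Of the 23 immune cells of the tdTomato+ eGFP+ library, 15 were collagen-low, and intervals of this share for collagen-low cells alone are not given. The choice of cells depends on depth: over all libraries the share was 1.64%, and 0.560% when each cell was thinned to 2000 UMIs before the choice was made.

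**Figure D1:**
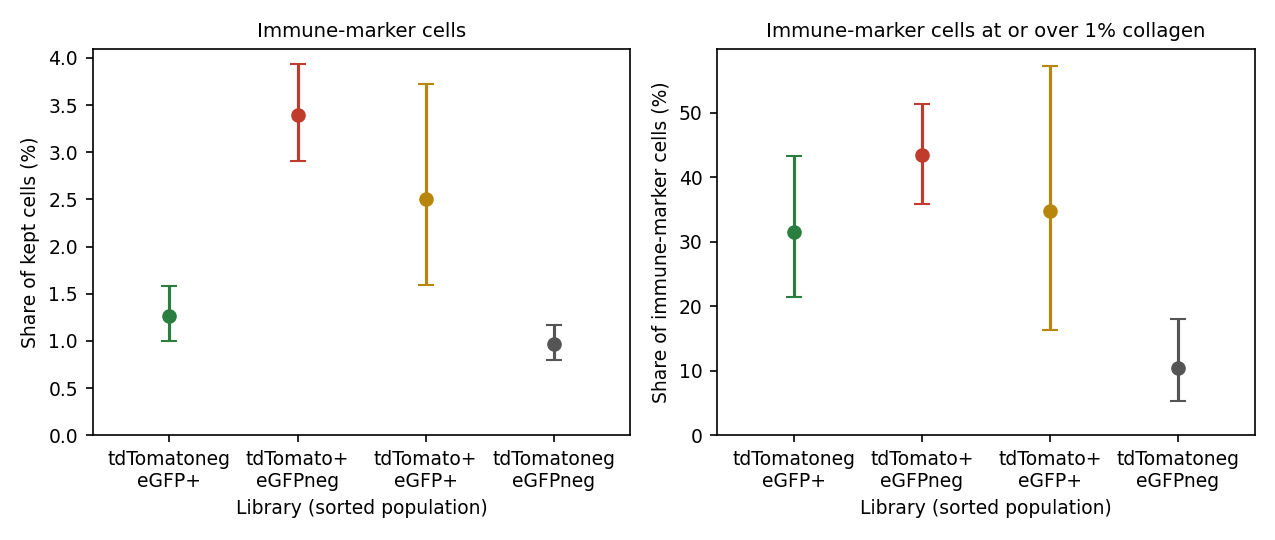
Left, immune cells as a percentage of kept cells in each sorted population, 1 library each. Right, collagen-high cells as a percentage of immune cells. Points are shares and bars are exact 95% binomial intervals for counting error. The tdTomato+ eGFPneg library stood highest in both panels, at 3.39% and 43.5%, and the tdTomatoneg eGFPneg library lowest, at 0.971% and 10.5%.

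The collagen-high share of the immune cells was 31.6% (interval 21.4 to 43.3, 24 of 76) in the tdTomatoneg eGFP+ library and 43.5% (35.8 to 51.3, 73 of 168) in the tdTomato+ eGFPneg library. It was 34.8% (16.4 to 57.3, 8 of 23) in the tdTomato+ eGFP+ library and 10.5% (5.35 to 18.0, 11 of 105) in the tdTomatoneg eGFPneg library. The tdTomatoneg eGFPneg library therefore had few collagen-high cells beside 94 collagen-low ones. Collagen-low cells numbered 52, 95, 15 and 94 in the same order of libraries. They were 68.8% of immune cells over all libraries, and 91.9% when cells were thinned before the choice, so the division depends on depth as well.

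The choice of cells at its limits can be described by the cells just inside and just outside it. Of the 372 cells, 139 had exactly 4 of the 6 leukocyte genes, 150 had 5 and 83 had all 6. The 139 cells with 4 had 3820 counts per 1000000 UMIs (CPM) of macrophage markers and 105 of them had at least 3 of those markers. The 127 cells with 3 leukocyte genes and no *Pax3*, just outside, had 1740 CPM, and 75 of them had at least 3 macrophage markers. Another 6 cells had 4 or more leukocyte genes but also *Pax3*. At the collagen limit, 18 cells lay between 0.8% and 1% and 19 between 1% and 1.25%, so that no gap separated the collagen-low from the collagen-high cells there. No collagen transcript at all was found in 51 cells, and 55 had 2% or more.

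The immune cells were mostly cells with macrophage genes. The 8 markers used included *Adgre1*, *C1qa*, *C1qb*, *C1qc*, *Csf1r*, *Mrc1* and *Ms4a7*, and at least 3 of the 8 were detected in 317 of 372 immune cells (85.2%, 81.2 to 88.7). The class is a range of a count and not a cell type: 18 immune cells had exactly 3 markers and 16 had 2. By library it held 58 of 76, 149 of 168, 20 of 23 and 90 of 105 immune cells. Among collagen-low cells, with a median of 5219 UMIs, the share was 83.2%, and among reference collagen cells, with a median of 8376 UMIs, it was 0.569%. After each cell was thinned to 2000 UMIs, which left out 38 collagen-low and 910 reference cells, these shares were 76.6% and 0.0402%.

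Gene levels were compared as CPM of UMIs summed over cells, and a gene is counted as higher or lower where it differed 2-fold or more and had at least 20 UMIs in both groups of cells together. Over all 17374 genes with that many UMIs, 15.0% were 2-fold or more higher in collagen-low cells than in reference collagen cells and 11.3% were lower, with a median log2 fold of 0.00. Of the macrophage markers 8 of 8 were higher, and of the genes of myeloid signalling and transcription 11 of 12 were. Leukocyte genes chose the cells, so these counts are read as a description of what was chosen.

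*C1qb*, a chain of the complement protein C1q, had 2133, 2806, 4260 and 2693 CPM in the collagen-low cells of the tdTomatoneg eGFP+, tdTomato+ eGFPneg, tdTomato+ eGFP+ and tdTomatoneg eGFPneg libraries. In the reference collagen cells it had 4.37, 6.01, 2.79 and 4.11 CPM. The ranges were far apart, and the collagen-low cells of all 4 libraries lay above the reference cells of all 4. Summed over libraries, *C1qb* was higher by 9.15 on the log2 scale (interval 9.03 to 9.28) and was detected in 84.0% of collagen-low cells against 3.92% of reference cells. Its partner chains *C1qa* and *C1qc* had 1937 and 1670 CPM in collagen-low cells, against 2.67 and 2.43 CPM in reference cells. *Ms4a7*, a membrane protein of macrophages, had 324, 409, 393 and 635 CPM by library and was highest in the tdTomatoneg eGFPneg library.

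Among the genes of myeloid signalling, *Fcer1g*, the signalling chain shared by Fc receptors, had 2393 CPM in collagen-low cells and 4.60 CPM in reference cells. *Lyz2*, the lysozyme of phagocytes, had 1548, 2813, 2911 and 1622 CPM by library, higher in the tdTomato+ libraries than in the tdTomatoneg ones. *Spi1*, which encodes the transcription factor PU.1 that directs myeloid development, had 175 CPM (interval 157 to 195) against 0.456 CPM. *Cebpb*, another transcription factor of that list, did not differ 2-fold, with 802 CPM in collagen-low and 897 CPM in reference cells.

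Because *Spi1* and the C1q genes had high levels in these cells, the promoters of *C1qb* and *C1qc* were searched for GAGGAA, the core letters of PU.1 sites, on both strands. The sequences are the 250 bases before the gene's start from RefSeq (GRCm38.p6, minus strand), written 5′ to 3′ in the direction of the gene, with a match in capitals, where TTCCTC is GAGGAA read on the other strand. The C1qb promoter lies at chr4:136886201-136886450 and the C1qc promoter at chr4:136892915-136893164.
C1qb: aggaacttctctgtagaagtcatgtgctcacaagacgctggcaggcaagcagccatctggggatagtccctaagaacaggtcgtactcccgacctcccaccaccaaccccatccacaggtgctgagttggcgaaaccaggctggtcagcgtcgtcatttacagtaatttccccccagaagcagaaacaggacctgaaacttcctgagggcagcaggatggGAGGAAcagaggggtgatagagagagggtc
C1qc: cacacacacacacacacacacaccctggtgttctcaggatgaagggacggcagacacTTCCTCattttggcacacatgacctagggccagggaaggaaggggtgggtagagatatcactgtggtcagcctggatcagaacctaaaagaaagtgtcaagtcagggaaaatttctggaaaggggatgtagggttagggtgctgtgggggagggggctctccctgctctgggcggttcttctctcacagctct

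Each of these promoters held 1 match, and 7639 of 32851 promoters of that length (23.3%) held at least 1. No promoter of *C1qa* was available. Of the 10 genes of largest fold, 7 had promoters in the set, and 4 of their 9 promoters held a match. A match is a run of letters and no evidence of binding.

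The genes outside all lists with the largest differences from reference collagen cells were genes of phagocytes or of leukocytes more widely. *Cybb*, the catalytic subunit of the phagocyte NADPH oxidase, had 370 CPM against 0.361 CPM and was detected in 73.0% of collagen-low cells and 0.239% of reference cells. *Rgs1*, a regulator of G protein signalling in leukocytes, had 437 CPM against 0.463 CPM. The others were *Cd5l*, *Cd300c2*, *Lilrb4a*, *Cd83*, *Clec12a*, *Lcp1*, *Clec4a2* and *Clec4a3*, with log2 folds between 9.24 and 10.52. The largest, for *Cd5l*, a secreted protein of tissue macrophages, rested on few cells: it was detected in 6.64% of collagen-low cells and had 46.9, 165, 977 and 4.15 CPM by library.

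Fc receptors and uptake receptors were also higher in collagen-low cells. Of the Fc receptors 5 of 5 tested were higher, among them *Fcgr4*, an activating receptor for IgG, with 324 CPM against 7.07 CPM, and *Fcgr1*, the high-affinity receptor for IgG, with 212 CPM against 0.479 CPM. Of the phagocytic and scavenger receptors 10 of 11 were higher. *Cd68*, a lysosomal protein of macrophages, had 318 CPM against 4.16 CPM, and *Msr1*, a scavenger receptor, had 259 CPM against 1.43 CPM. *Trem2*, a lipid receptor of macrophages, also had 38.5 CPM in reference cells, against 143 CPM. Of the Toll-like receptors and their partners 5 of 8 were higher, with *Cd14*, the co-receptor for lipopolysaccharide, at 326 CPM against 126 CPM.

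All 7 tested genes of MHC class II presentation were higher in collagen-low cells, and none of 9 genes of class I presentation differed 2-fold. *Cd74*, the invariant chain that guides class II molecules, had 5415, 5327, 9189 and 6309 CPM by library, and reference cells had 1771, 1669, 1763 and 1056 CPM. The libraries did not overlap between the groups of cells, though reference cells also had the gene in 83.3% of cells. *H2-Aa*, a chain of the class II molecule itself, had 2033 CPM against 311 CPM. *H2-K1*, a class I heavy chain, had 2404 CPM in collagen-low cells and 2268 CPM in reference cells.

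Monocyte, neutrophil and dendritic cell markers were sparser. At least 3 of 6 monocyte markers were found in 44 collagen-low and 34 collagen-high cells. Of these 78 cells, 67 also had at least 3 macrophage markers. The monocyte class held 17.2% of collagen-low and 29.3% of collagen-high cells. After thinning these shares were 6.88% and 0.862%, so the class depended on depth. *Ccr2*, the receptor for CCL2, had 66.9, 82.5, 31.9 and 54.0 CPM by library in collagen-low cells and at most 0.173 CPM in reference cells. *Ly6c2*, a surface protein of inflammatory monocytes, had 49.7 CPM. The monocyte marker *Plac8* did not separate the groups, with 691 CPM in collagen-low and 1069.7 CPM in reference cells.

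No immune cell had 3 neutrophil, mast cell, eosinophil or endothelial markers, which with 0 of 372 cells allows a share of up to 0.806% for each as 3 counts of the total, and of up to 0.987% by the exact interval. The neutrophil gene *S100a8* was detected in 2.73% of collagen-low cells. At least 3 conventional dendritic cell markers were detected in 7 immune cells, at least 3 plasmacytoid dendritic cell markers in 2 and at least 3 mature dendritic cell markers in 10. The last list was also met by 2.87% of reference cells, and 3 of its 4 tested genes were lower in collagen-low cells. *Fscn1*, an actin-bundling protein of mature dendritic cells and many other cells, had 74.3 CPM in collagen-low and 201 CPM in reference cells. *Xcr1*, the chemokine receptor of cross-presenting dendritic cells, had 7.48 CPM against 0.0157 CPM.

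Lymphoid markers came from few cells. At least 3 T cell or 3 B cell markers were found in 25 of 372 immune cells (6.72%, 4.40 to 9.76), and at least 3 of any lymphoid list in 27, of which 9 also had at least 3 macrophage markers. Cells with at least 3 T cell markers numbered 1, 9, 1 and 3 by library, and cells with at least 3 B cell markers 7, 3, 0 and 2. Over all libraries 8 cells of the T cell class and 2 of the B cell class also had at least 3 macrophage markers. Most of the T cell class was therefore mixed. As a share of the immune cells the T cell class was 5.36% (2.48 to 9.93) in the tdTomato+ eGFPneg library and 2.86% (0.593 to 8.12) in the tdTomatoneg eGFPneg library, with intervals that overlapped.

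The tested T cell markers (6 of 6) and B cell markers (6 of 6) were higher in collagen-low cells, at low levels. *Trbc2*, a constant region of the T cell receptor, had 4.46, 36.3, 0 and 12.5 CPM by library and was detected in 4.30% of collagen-low cells and 0.105% of reference cells. *Cd8a*, the co-receptor of cytotoxic T cells, had 5.88 CPM, while *Cd4*, that of helper T cells, had no UMI in collagen-low cells. *Nkg7*, a granule protein of NK and cytotoxic T cells, had 28.3 CPM. *Cd79b*, a signalling chain of the B cell receptor, had 22.5 CPM against 0.0864 CPM in reference cells and was detected in 10.2% of collagen-low cells.

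Antibody genes were the clearest case of a level set by single cells. *Ighm*, the heavy chain of IgM, had 973, 85.8, 42.5 and 51.2 CPM by library in collagen-low cells, and 1 cell gave 77.3% of its UMIs. *Jchain*, which joins IgM and IgA multimers, had 665, 867, 0 and 1.38 CPM, and 1 cell gave 47.8%. *Ighg2c*, an IgG heavy chain chosen for mention after its values were seen, had 1721 CPM from 5 cells (1.95%) and no UMI in collagen-high cells. The light chain gene *Igkc*, chosen likewise, had 5572 CPM in collagen-low cells, and 98.8% of its UMIs in collagen-high cells came from 1 cell of the tdTomatoneg eGFP+ library. Antibody transcripts were also present outside the immune cells, with 312 CPM of *Igkc* in reference cells and 6.77% of those cells detecting it.

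Summed over 35 myeloid and 29 lymphoid marker genes, the collagen-low cells had 15995 and 2027 UMIs, a log2 ratio of 2.98 (interval 2.91 to 3.05). The ratio depends on the choice of cells and was 1.21 with at least 3 leukocyte genes and 5.004 with at least 5. *Tyrobp*, one of the 6 genes of that choice, is itself a gene of myeloid and NK cells. The ratio was 1.81 in the tdTomatoneg eGFP+ library, 2.53 in the tdTomato+ eGFPneg library, 6.11 in the tdTomato+ eGFP+ library and 5.35 in the tdTomatoneg eGFPneg library. Of the lymphoid UMIs 28.9% came from 1 cell and 63.8% from 3 cells, while 147 of 256 cells had none, and without the cell that held the most the ratio was 3.47. In collagen-high cells 1317 of 1680 lymphoid UMIs came from 1 cell of the tdTomatoneg eGFP+ library. The ratio in reference cells was 3.44, of which *Plac8* was a large part of the myeloid sum. The 6 monocyte markers, among them *Plac8*, gave 136457 of 188142 myeloid UMIs in reference cells and 1826 of 15995 in collagen-low cells. Without *Plac8* the ratio in collagen-low cells was 2.86. The ratio without *Plac8* is not given for reference cells, so 2.86 and 3.44 cannot be compared like for like.

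**Figure D2:**
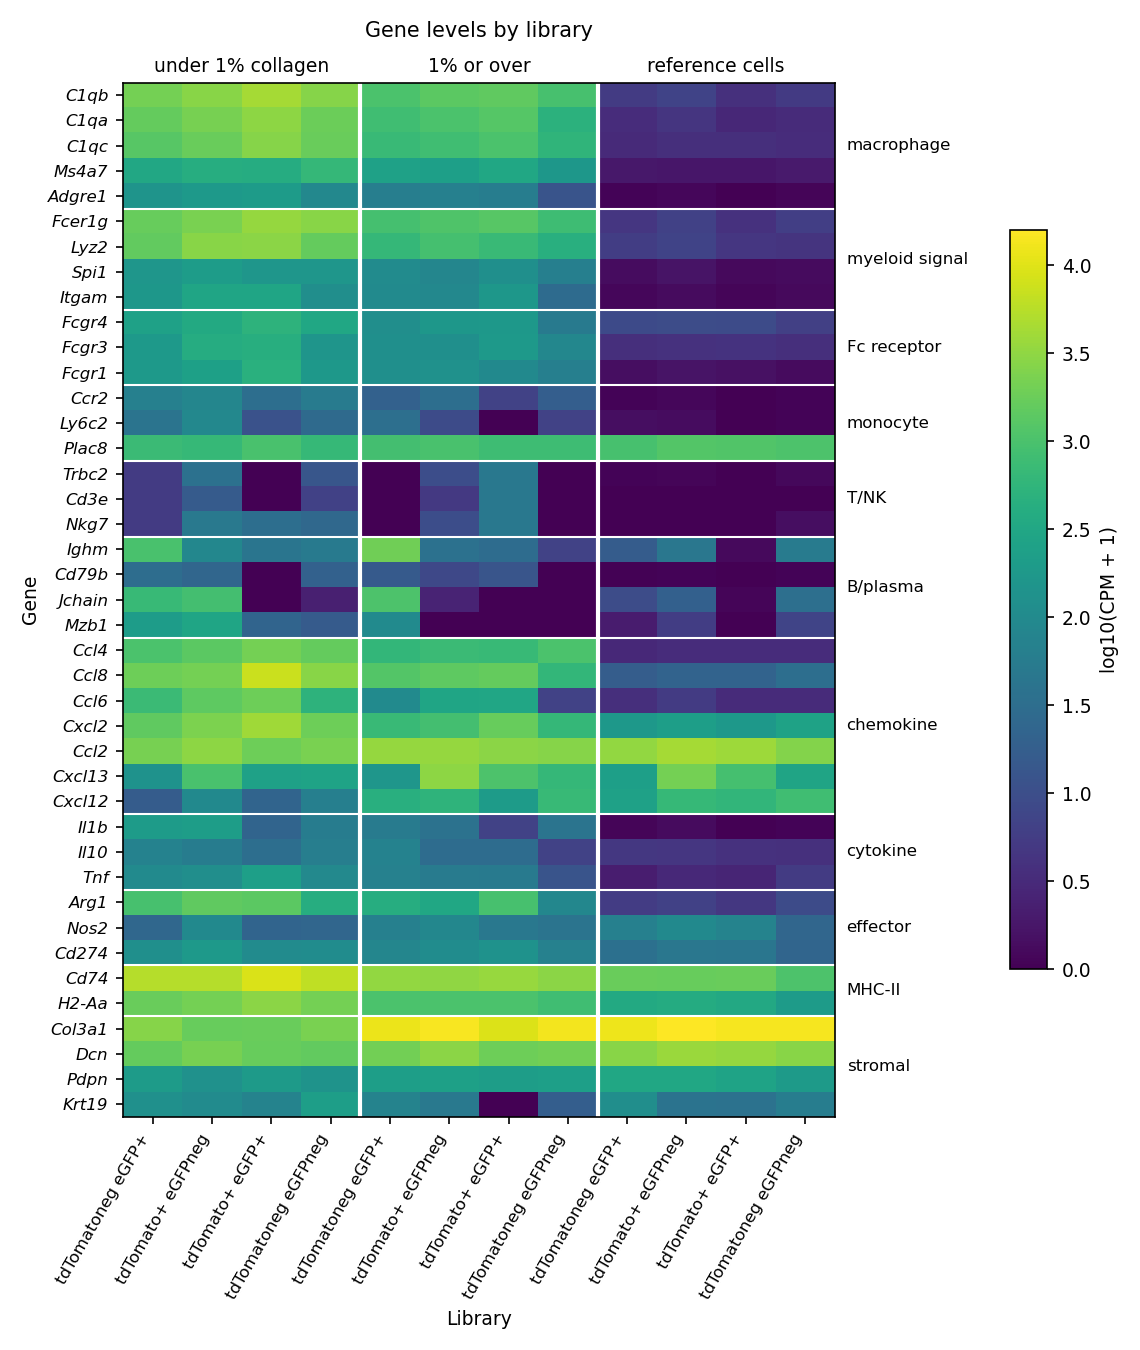
Levels of genes (rows, grouped by role at the right) in each library (columns) for collagen-low cells, collagen-high cells and reference collagen cells, as log10 of CPM plus 1. *C1qb* and *Fcer1g* are high in the 4 collagen-low columns and near the bottom of the scale in the reference columns, *Ighm* and *Jchain* vary between libraries, and *Col3a1* shows the reverse order.

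The receptors that could read the chemokines and B cell factors that fibroblasts make were measured in every library. *Cx3cr1*, the receptor for CX3CL1 on monocytes and macrophages, had 63.1 CPM in collagen-low cells against 8.39 CPM in reference cells, and 7 of 7 tested chemokine receptors were higher. *Cxcr4*, the receptor for CXCL12, had 17.8, 19.8, 21.2 and 2.77 CPM by library. *Cxcr5*, the receptor for CXCL13, had 4.46, 3.30, 0 and 1.38 CPM, from 5 UMIs in all, and none in collagen-high cells. This is too few to compare libraries. *Ccr7*, which guides T cells and dendritic cells to lymphoid tissue, had 3 UMIs, all in the tdTomatoneg eGFP+ library. *Cxcr3*, the receptor for CXCL9 and CXCL10, was detected in collagen-low cells of the tdTomato+ eGFPneg library, at 9.90 CPM, and not in those of the other libraries. *Cxcr6*, the receptor for CXCL16, had 1.07 CPM over all libraries.

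*Gpr183*, which senses oxysterols, had 13.4, 18.2, 10.6 and 15.2 CPM, with intervals that all overlapped. *Tnfrsf13b*, which binds both BAFF and APRIL, factors that keep B cells alive, had 15.6, 14.9, 21.2 and 8.30 CPM. *Tnfrsf13c*, the receptor for BAFF, had 0, 1.65, 0 and 2.77 CPM. *Itga4*, a chain of the integrin that binds VCAM-1, had 49.1, 109, 53.1 and 33.2 CPM and was highest in the tdTomato+ eGFPneg library, where its interval (84.3 to 139) lay above those of both tdTomatoneg libraries. Of the leukocyte integrins and selectin ligands 6 of 8 tested were higher than in reference cells, with *Itgam*, a chain of the complement receptor of phagocytes, at 195 CPM against 0.259 CPM.

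Of 21 chemokines 10 were higher in collagen-low cells than in reference cells and 2 were lower. *Ccl8*, a ligand of CCR receptors on monocytes, had 1872, 2093, 7203 and 2797 CPM by library against 16.3 to 32.1 CPM in reference cells. *Ccl4*, which draws monocytes and T cells, had 1416 CPM against 2.29 CPM, and *Cxcl2*, a ligand for the receptor of neutrophils, had 2040 CPM against 217 CPM. *Ccl2* and *Ccl7*, which draw monocytes through CCR2, did not differ 2-fold, with 2491 and 1624 CPM against 3445 and 1457 CPM. *Cxcl12* was lower, with 60.4 CPM against 590 CPM.

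*Cxcl13* differed between libraries in each group of cells. In collagen-low cells it had 138, 989, 255 and 273 CPM by library, and in reference cells 233, 2131, 930 and 285 CPM. In collagen-high cells it had 161, 3112, 1078 and 633 CPM. In each group of cells the tdTomato+ eGFPneg library was highest and the tdTomatoneg eGFP+ library lowest, and in collagen-low cells no library was above its reference cells. It was detected in 20.3% of collagen-low and 36.1% of reference cells.

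Of 12 cytokines tested 9 were higher in collagen-low cells and 2 were lower. *Il1b*, an inflammatory cytokine of phagocytes, had 199, 216, 21.2 and 56.7 CPM by library and at most 0.346 CPM in reference cells. *Il1rn*, which blocks the IL-1 receptor, had 70.0 CPM against 0.236 CPM, and *Il10*, which restrains macrophages and dendritic cells, had 60.4 CPM against 3.38 CPM. *Il6*, an inflammatory cytokine that fibroblasts also make, was lower, with 62.0 CPM against 189 CPM. Of 9 ligands of the TNF and lymphotoxin family 4 were higher and 2 were lower. *Tnf* had 111 CPM against 2.55 CPM, and *Tnfsf13*, which encodes APRIL, had 43.8 CPM against 9.86 CPM. *Tnfsf13b*, which encodes BAFF, had 9.62 CPM against 9.70 CPM.

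Of 14 genes known from tumor-associated macrophages 8 were higher and none lower. *Arg1*, the arginase that consumes arginine, had 950, 1517, 1392 and 415 CPM by library in collagen-low cells and 3.71 to 8.26 CPM in reference cells, and was detected in 45.7% and 3.38% of cells. It was lowest in the tdTomatoneg eGFPneg library. *Nos2*, the nitric oxide synthase of activated macrophages, did not differ 2-fold, with 47.0 CPM against 62.5 CPM. *Ctsb*, a lysosomal protease, had 1503 CPM against 411 CPM, and *Apoe*, a lipid carrier, had 896 CPM against 331 CPM.

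Of 10 tested genes of costimulation and checkpoints 9 were higher. *Cd86*, which costimulates T cells through CD28, had 160 CPM against 0.134 CPM, and *Cd274*, which encodes the checkpoint ligand PD-L1, had 137 CPM against 34.3 CPM. Of the genes of resident peritoneal macrophages 5 of 7 tested were higher and 1 was lower. Their summed level was 295, 342, 945 and 209 CPM by library, highest in the tdTomato+ eGFP+ library of 15 collagen-low cells. In reference cells it was 207, 169, 167 and 126 CPM. In the set of 101 collagen-low cells with few stromal and melanoma markers, described below, the sum was 338, 314, 508 and 98.3 CPM. In that set the tdTomato+ eGFP+ library had 5 cells, and the tdTomatoneg eGFPneg library lay below its reference cells. Among the phagocytic and scavenger receptors, *Timd4*, a receptor for dying cells, had 6.69, 36.3, 74.4 and 5.54 CPM by library. *Marco*, a scavenger receptor of the same list, had 11.2, 85.8, 457 and 0 CPM, also highest in the tdTomato+ eGFP+ library. *Gata6*, the transcription factor of resident peritoneal macrophages, had 81.3 CPM in collagen-low and 135 CPM in reference cells.

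The collagen-high cells carried fibroblast and immune transcripts together. At least 3 of the 7 fibroblast markers were found in 116 of 116 collagen-high cells, and 104 of these cells also had at least 3 macrophage markers (89.7%, or 65.5% after thinning). They were deeper than the other cells, with a median of 16390 UMIs and 4147 genes, against 5219 UMIs and 1953.5 genes in collagen-low cells and 8376 UMIs and 2638 genes in reference cells. By library their median depth was 17153, 16131, 22725 and 14704 UMIs.

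**Figure D3:**
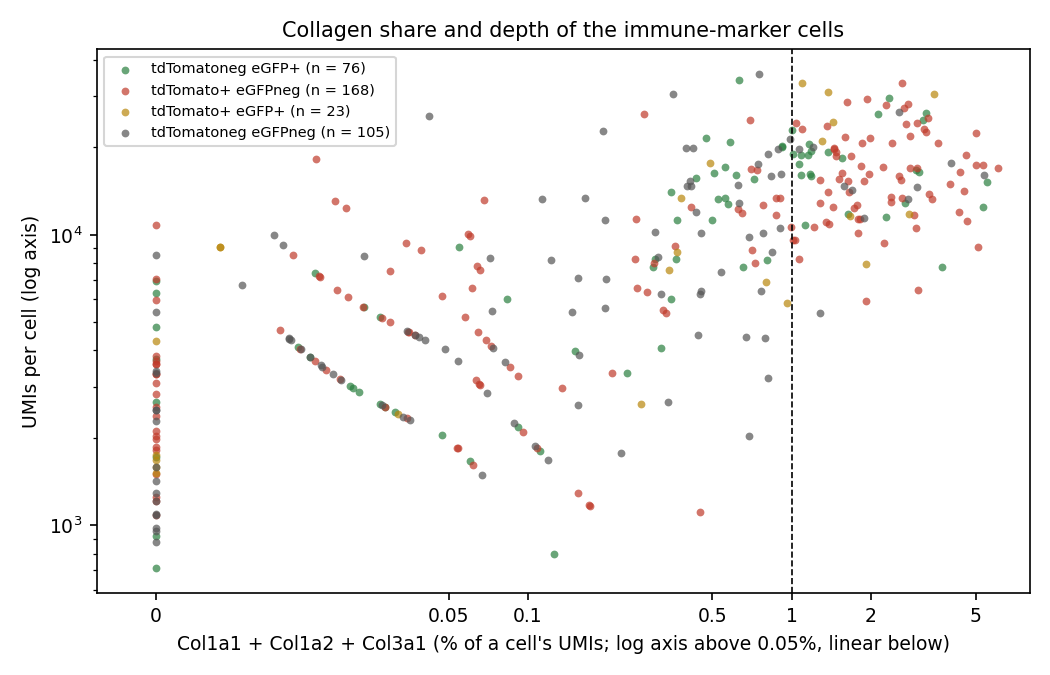
Each point is 1 of the 372 immune cells, with the percentage of its UMIs from *Col1a1*, *Col1a2* and *Col3a1* (horizontal, linear below 0.05% and logarithmic above) and its total UMIs (vertical, logarithmic), colored by library. The dashed line is the 1% limit. Cells right of it had a median of 16390 UMIs, and cells left of it 5219.

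Macrophage and fibroblast transcripts were also counted per cell rather than as CPM. The 8 macrophage markers gave a median of 46.5 UMIs (quartiles 10.75 and 80.25) in a collagen-low cell, 60 UMIs (26 and 88) in a collagen-high cell and 0 in a reference cell. By library the medians were 50, 44, 46 and 46.5 UMIs in collagen-low cells and 48.5, 66, 80 and 42 UMIs in collagen-high cells, higher in the collagen-high cells of the tdTomato+ libraries and slightly lower in those of the tdTomatoneg libraries. The 7 fibroblast markers gave 3 UMIs (1 and 55.25), 368 UMIs (249 and 613) and 217 UMIs (115 and 379). A collagen-high cell thus held more fibroblast marker UMIs than a reference cell at the median, and the median was higher in each of the 4 libraries, with 305.5, 392, 363.5 and 283 UMIs against 207, 271, 263 and 179.

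**Figure D4:**
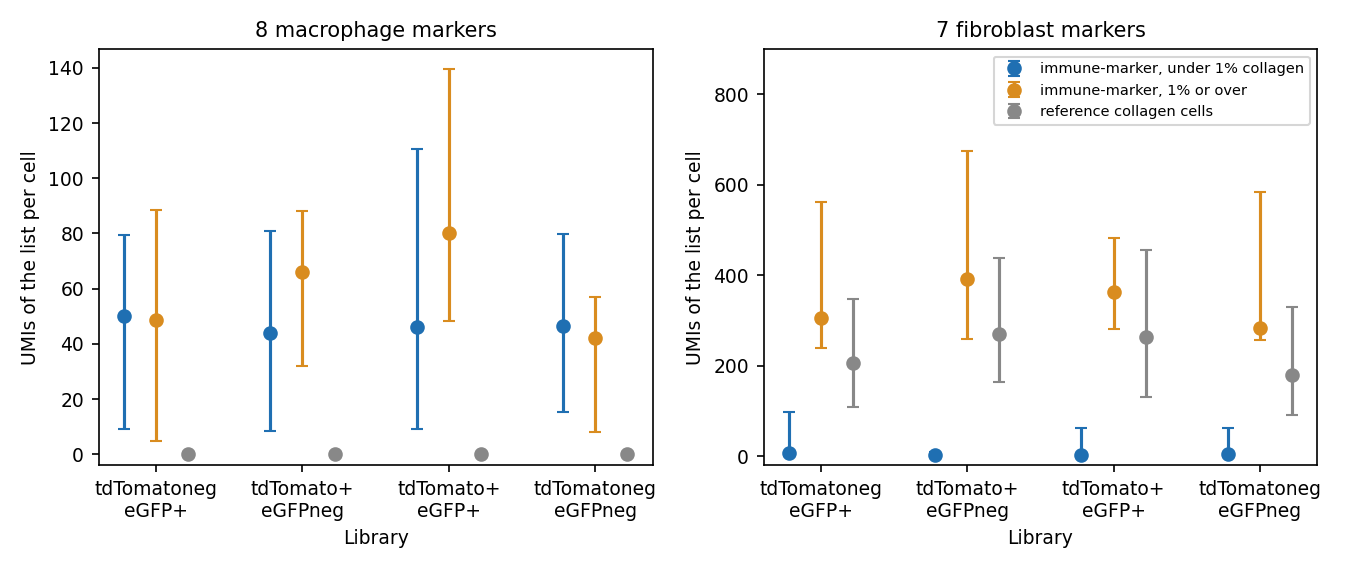
UMIs per cell of the 8 macrophage markers (left) and the 7 fibroblast markers (right) by library, for collagen-low, collagen-high and reference collagen cells. Points are medians over cells and bars are quartiles. Collagen-high cells had macrophage medians of 42 to 80 UMIs and fibroblast medians of 283 to 392 UMIs.

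Other measures bear on the same cells. *Xist*, which is transcribed from the inactive X chromosome of female cells, and Y-linked genes were both detected in 11 of 95 collagen-high cells with either (11.6%, 5.92 to 19.8). In collagen-low cells this was 5 of 117 (4.27%, 1.40 to 9.69) and in reference cells 283 of 7984 (3.54%, 3.15 to 3.97), so that the interval of collagen-high cells lay above that of reference cells but overlapped with that of collagen-low cells. The doublet score of Scrublet, which called 6 of 24489 barcodes and so had not worked as a caller, had medians by library of 0.116, 0.102, 0.0167 and 0.216 in collagen-high cells and 0.0659, 0.0512, 0.0101 and 0.106 in reference cells. In collagen-low cells the medians were 0.0772, 0.0359, 0.0101 and 0.143, so that collagen-high cells were highest in each library and collagen-low cells were not always above reference cells. These values accompany the larger depth of the collagen-high cells, and the part of droplets with more than 1 cell in them was not tested.

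Of 10108 genes tested, 8.51% were 2-fold or more higher in collagen-high than in collagen-low cells and 5.91% were lower, with a median log2 fold of 0.01. The division used collagen genes, and 6 of 7 fibroblast markers were higher. The 6 leukocyte genes were all lower, as were 5 of 8 macrophage markers, 4 of 5 Fc receptors and 6 of 12 genes of myeloid signalling. *C1qb* had 1297 CPM in collagen-high cells, a difference from collagen-low cells of -1.04 on the log2 scale (interval -1.11 to -0.98). *Ptprc*, which encodes CD45, had 134 CPM against 331 CPM. *H2-Aa* and *Cd74* had 1016 and 3203 CPM against 2033 and 5922 CPM.

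Among genes chosen for a difference between collagen-low and reference cells, the collagen-high cells mostly lay between them. Of 497 genes with at least 100 CPM in 1 of the groups that differed 2-fold between collagen-low and reference cells, 473 (95.2%) were between them in collagen-high cells, 16 were above both and 8 below both. Among the genes highest above both groups, *Cxcl13* had the largest number of UMIs, with 2101 CPM against 471 CPM in collagen-low and 895 CPM in reference cells. Of the collagen-high cells, 73 of 116 came from the tdTomato+ eGFPneg library, where their level was 3112 CPM and that of its reference cells 2131 CPM. Several others, *Sorcs1*, *Gzmb*, *Retnla* and *Serpina1b*, had over 50% of their UMIs from 1 cell, and *Igkv4-91* all of them.

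Genes of the sort were also compared. *Pdpn*, which encodes podoplanin, had 199, 132, 191 and 143 CPM by library in collagen-low cells and 312, 315, 274 and 192 CPM in reference cells. It was detected in 37.5% and 72.2% of these cells and was lower in the collagen-low cells of each library. Collagen-high cells had 236 CPM. *Ptprc* was detected in 75.8% of collagen-low and 0.120% of reference cells, but it is among the leukocyte genes that chose both groups, so this difference follows from the choice. *Pecam1*, which encodes CD31 and is also made by leukocytes, had 12.3 CPM against 2.80 CPM.

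Transcripts of other cells remained in the collagen-low cells. At least 3 fibroblast markers were found in 124 of 256, at least 3 of 6 mesothelial markers in 57, and at least 3 melanoma markers in 6 of all 372 immune cells. *Krt19*, a keratin of mesothelial cells, had 155 CPM in collagen-low cells, 47.4 CPM in collagen-high cells and 67.9 CPM in reference cells. *Dct*, an enzyme of melanin synthesis, had 105 CPM in collagen-low cells and 10.9 CPM in reference cells, and *Msln*, which encodes mesothelin, had 103 CPM against 33.7 CPM. Of the collagen-low cells 130 had under 3 markers of each of these lists, and no collagen-high cell did.

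In 101 collagen-low cells with at least 3 macrophage markers and under 3 markers of the fibroblast, mesothelial and melanoma lists, a set chosen after the values were seen, macrophage levels were high and stromal levels low by that choice itself. They came from the libraries in the numbers 17, 42, 5 and 37. *C1qb* had 5274 CPM, *Lyz2* 3743 CPM and *Ptprc* 593 CPM. *Pdpn* had 32.1 CPM, *Cxcl12* 12.3 CPM and *Gata6* 2.47 CPM, the last from 1 UMI. *Ccl2* had 1854 CPM. *Cxcl13* had 168 CPM (130.4 to 213) from 68 UMIs in 12.9% of the cells, and by library 0, 146, 235 and 260 CPM. The tdTomatoneg eGFP+ library thus had none, and the tdTomato+ eGFPneg library was not the highest, unlike in the groups of cells above. With so few UMIs the other libraries were not ranked. *Arg1* had 1059, 3137, 1916 and 856 CPM, highest in the tdTomato+ eGFPneg library.

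The libraries with the most collagen-low cells, tdTomato+ eGFPneg with 95 and tdTomatoneg eGFPneg with 94, were set against each other. Of 6851 genes tested, 9.04% were 2-fold or more higher in the tdTomato+ eGFPneg library and 4.76% were lower, with a median log2 difference of 0.12. None of the 7 MHC class II genes, 9 class I genes, 12 interferon-stimulated genes and 12 genes of myeloid signalling differed 2-fold. Higher were 5 of 13 genes of tumor-associated macrophages, 5 of 10 cytokines, 5 of 20 chemokines, 5 of 11 phagocytic receptors and 4 of 8 Toll-like receptors and partners, and none of these lists had a lower gene.

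*Arg1* was higher by 1.87 on the log2 scale (interval 1.68 to 2.06), with 1517 against 415 CPM, and in reference cells the same difference was -0.56. *Ccl6*, a chemokine of macrophages, was higher by 1.51 (1.34 to 1.69), with 1461 against 512 CPM. *Spp1*, which encodes osteopontin, was higher by 1.03 (0.79 to 1.26), while in reference cells it was lower, at -1.93. *Il1b* was higher by 1.93 (1.41 to 2.47) and *Cd86* by 1.53 (1.11 to 1.96). *C1qb* differed by 0.06 (-0.04 to 0.15). *Cxcl13* was higher by 1.86 (1.62 to 2.10), and in reference cells by 2.90.

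Transcripts of other cells also differed between these libraries. Of the mesothelial markers 5 of 6 were lower in the tdTomato+ eGFPneg library, summed at 314 CPM against 901 CPM, and of the melanoma markers 4 of 4 tested were higher, at 624 CPM against 95.5 CPM. Few cells carried the melanoma markers: over all libraries 5 of 256 collagen-low cells had at least 3, and the median and upper quartile were 0 UMIs per cell. *Krt8*, a keratin of epithelial and mesothelial cells, differed by -1.94 on the log2 scale (-2.60 to -1.34). *Dct* was higher by 2.40 (1.87 to 2.96), and in reference cells it was lower, at -2.99. The part of these cells in the differences of macrophage genes was not tested, and animal and library cannot be told apart from the sorted population.

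**Figure D5:**
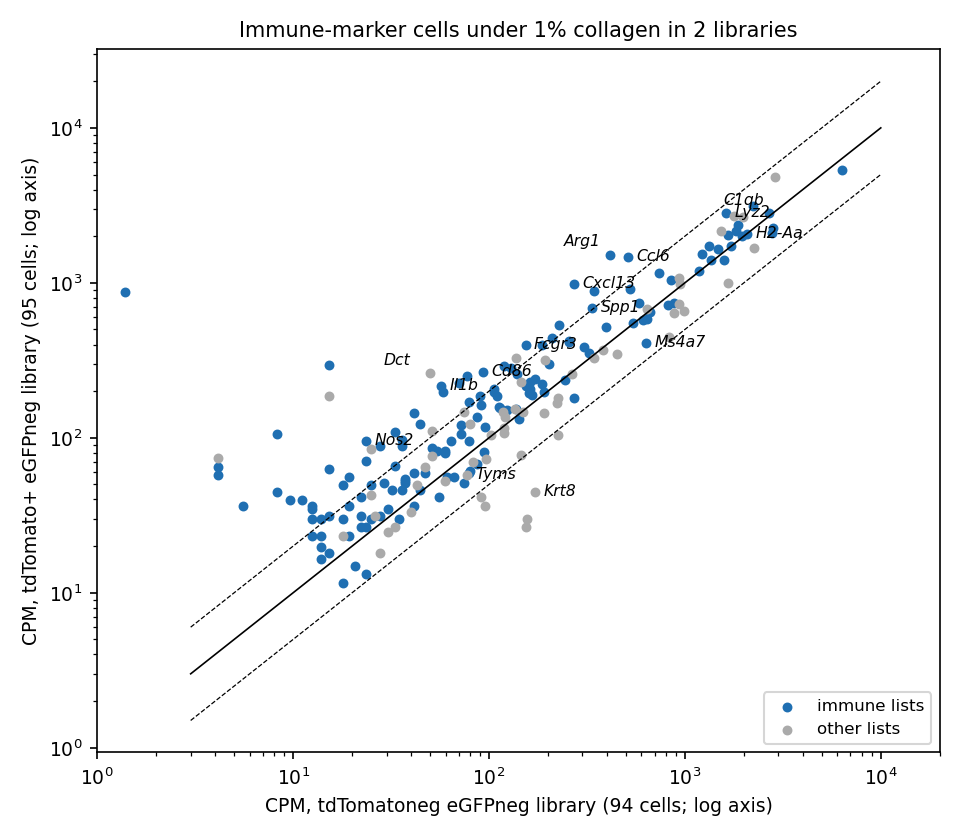
Level of each gene in collagen-low cells of the tdTomatoneg eGFPneg library (horizontal) and the tdTomato+ eGFPneg library (vertical), in CPM on log axes, for genes of the immune lists (blue) and of stromal, tumor, interferon, class I and cell state lists (grey) with at least 20 UMIs in both together and at least 1 in each. The solid line is equality and the dashed lines are 2-fold. *Arg1*, *Ccl6* and *Il1b* lie above the upper dashed line, *C1qb* and *H2-Aa* near equality, and *Krt8* below the lower one.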

How the data were processed

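Single-cell libraries of 4 sorted populations were analysed, 1 per population. The authors deposited unnormalized UMI counts of 33696 genes per cell barcode. The headers of the deposited count matrices name Cell Ranger 8.0.0, while the submitters' processing notes name Cell Ranger 10.0.0, STAR, Seurat 5.0 and the build GRCm39. The study's limits on genes and mitochondrial share were used.

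Python 3.11.15 with pandas 2.3.3, numpy 2.4.6 and scipy 1.17.1 was used for sums and intervals, and matplotlib 3.10.9 for plots. CPM have exact Poisson 95% intervals, shares exact Clopper-Pearson intervals, and log2 folds exact conditional binomial intervals. Intervals cover counting error only, and the precision of levels is set by the UMIs summed over the chosen cells. These were 94132 to 722607 UMIs per library in collagen-low cells and 171560 to 1235963 in collagen-high cells. A share at 0 was bounded by 3 counts. The immune cells and the 42 gene lists (351 genes) were chosen with earlier results of these data known. A class is the cells with at least 3 genes of a list. Named genes are those of highest level in each list, receptors for the study's chemokines, the 10 genes outside the lists of largest fold at 100 CPM or more in collagen-low cells, and the 10 of largest fold of collagen-high cells over both other groups. *Ighg2c*, *Igkc*, *Xist* and the set of 101 cells were chosen after their values were seen, as were 3 alternatives. The 2-fold calls and the intervals of log2 folds were tested on simulated counts summed over cells, which held no variation between cells. The other steps were not tested in this way.

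Doublets were kept. Scrublet in scanpy 1.11.5 called 6 of 24489 barcodes and so had not worked, and removal of the expected share by its score (0.8% per 1000 barcodes, 1671 barcodes) was an alternative. Others were limits on genes, mitochondrial share, leukocyte genes, collagen and UMIs, thinning to 2000 UMIs, means over cells or libraries, a library-weighted reference, and each library left out. Some genes of the lists are not reported here.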

Additional observations from a re-analysis of the deposited data

Results flagged for a closer look

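Immune cells were also present among barcodes that the limits on genes and mitochondrial share had removed. Of 1798 such barcodes 33 (1.84%, 1.27 to 2.57) had at least 4 of the 6 leukocyte genes and no *Pax3*, with 6, 13, 3 and 11 in the tdTomatoneg eGFP+, tdTomato+ eGFPneg, tdTomato+ eGFP+ and tdTomatoneg eGFPneg libraries. Of them 17 had over 6000 genes, 13 over 10% mitochondrial UMIs and 4 under 500 genes, 27 had at least 3 macrophage markers, and 14 had at least 1% collagen transcripts.

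For 4 lists the collagen-low cells lay above the reference collagen cells in 1 library and below them in another, with counting intervals past 0 in both, among the 3 libraries with at least 20 collagen-low cells. Each difference between libraries was not tested. The summed plasma cell markers differed by 3.71 on the log2 scale in the tdTomatoneg eGFP+ library, by 3.66 in the tdTomato+ eGFPneg library and by -1.90 in the tdTomatoneg eGFPneg library. Few cells carried them: at least 3 plasma cell markers were found in 2 of 52, 3 of 95 and 0 of 94 collagen-low cells. Interferon-stimulated genes differed by 0.56 in the tdTomatoneg eGFPneg library, by -0.29 in the tdTomato+ eGFPneg library and by -0.17 in the tdTomatoneg eGFP+ library. Genes of hypoxia and glycolysis differed by 0.45 in the tdTomatoneg eGFPneg library, by 0.36 in the tdTomato+ eGFPneg library and by -0.31 in the tdTomatoneg eGFP+ library. The list of podoplanin partners held *Clec1b*, *Ccl21a*, *Msn*, *Ezr* and *Cd9*. Its sum differed by 0.58 in the tdTomatoneg eGFPneg library, by 0.43 in the tdTomato+ eGFPneg library and by -0.19 in the tdTomatoneg eGFP+ library. In the set of 101 collagen-low cells *Msn* had 351 CPM, and *Clec1b*, the partner on platelets, had 7.41 CPM.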

How the results depend on the processing

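The share of immune cells among kept cells (1.64%) was 2.20% with at least 3 and 1.03% with at least 5 leukocyte genes, 2.03% as a mean over libraries, 0.560% where cells were thinned before the choice, and 1.15% to 2.25% with each library left out, lowest without tdTomato+ eGFPneg and highest without tdTomatoneg eGFPneg. The collagen-low share of immune cells (68.8%) was 56.2% and 85.2% with limits of 0.5% and 2%, 91.9% after thinning, and 60.7% to 78.9% with each library left out. The log2 ratio of myeloid to lymphoid UMIs (2.98) was 1.21 and 5.004 with at least 3 and 5 leukocyte genes, 2.86 without the expected doublets, 3.95 as a mean over libraries, 3.44 and 3.28 with collagen limits of 0.5% and 2%, 4.53 after thinning, 2.86 without *Plac8*, 3.47 without the cell of most lymphoid UMIs, and 2.40 to 3.51 with each library left out, lowest without tdTomatoneg eGFPneg. The share of immune cells with at least 3 macrophage markers (85.2%) was 78.6% and 91.0% with at least 3 and 5 leukocyte genes, 89.5% and 80.4% with 2 and 4 markers, and 80.2% after thinning. The share with T or B cell markers (6.72%) was 14.5% with 2 markers. Genes lower in collagen-low than reference cells (1957) numbered 3277 by means over cells. Genes higher and lower in collagen-high than collagen-low cells (860 and 597) numbered 1452 and 1024 by means over cells, 533 and 335 with at least 50 UMIs, and with at least 10 UMIs 918 were lower. The causes were not tested.

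Of the named genes, *Tnfsf8* (0.10) and *Gata3* (0.014) changed direction against reference cells by means over cells, and *Gm31522* (-1.003 to 1.44 with each library left out) without the tdTomatoneg eGFPneg library. No paired analysis was possible because each population had 1 library. Depth limits receptors and lymphoid genes of a few UMIs, and the tdTomato+ eGFP+ library with its 15 collagen-low and 8 collagen-high cells.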

Other observations

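Cell cycle and metabolic genes did not mark the immune cells. Of 10 tested cell cycle genes none differed 2-fold between collagen-low and reference collagen cells, with *Birc5*, which takes part in chromosome segregation, at 131 CPM against 113 CPM and *Top2a*, a topoisomerase of dividing cells, at 112 CPM against 172 CPM. Of 9 genes of hypoxia and glycolysis 1 was higher, and *Ldha*, which makes lactate, had 976 CPM against 889 CPM. Of 12 interferon-stimulated genes 2 were higher and none lower, and *Isg15*, a ubiquitin-like protein, had 784 CPM against 708 CPM. Endothelial genes other than *Pecam1* were near 0, with *Cdh5*, the cadherin of endothelial junctions, at 0.535 CPM.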
